A study of Mus musculus with 4 samples.

Results

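Chromatin accessibility was examined at the promoters of the nuclear genes that encode the mitochondrial respiratory chain and ATP synthase in mouse hematopoietic stem cells (HSCs) with and without Med23, a subunit of the mediator complex that links transcription factors to RNA polymerase II. A gene was included when it was a nuclear protein-coding gene of GENCODE M21 whose symbol begins with Nduf, Sdh followed by 1 letter, Uqcr, Cox4, Cox5, Cox6, Cox7, Cox8 or Atp5, which gave 93 genes among 21728. An accessible site was assigned to a gene when its summit lay within 1000 bp of any annotated start site of that gene. The rule took 85 of the 37919 peaks of the WT list and 89 of the 37639 peaks of the KO list.

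ATAC-seq was the assay, which uses a transposase to place sequencing adapters into accessible DNA. Bone marrow HSCs were sorted as LSK CD150+ CD34- CD48- cells from adult C57BL/6 mice, and each reaction used 5000 cells. The study's ATAC-seq methods give the sort as CD150+ CD48- LSK, without naming CD34. WT mice carried the floxed allele alone, labelled WT(Med23floxp/flowp), and KO mice carried the same allele with the interferon-inducible Cre transgene, labelled KO(Mx1-cre;Med23floxp/flowp). The study's methods describe induction of the deletion with poly(I:C), which is itself a stimulus of interferon signaling, and Mx1-cre is also active outside blood cells. The ages of the mice were not given beyond adult.

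Each genotype had 2 samples, and the labels of both samples name the same peak list, so there was 1 list per genotype. No replicate check was possible, no test between genotypes was run, and every interval of a KO:WT ratio below covers counting error only. Intervals of shares treat the peaks as independent draws, although the peaks of both lists come from the same genome and mostly the same genes. The quantity compared was the summit pileup, the number of fragments that the peak caller counted over the summit. It was recovered as a whole number from the fold enrichment and p-value of each peak. The study's methods do not state whether a counted fragment was a read pair or an extended read. The median pileup of all peaks on autosomes and X came to 18 for the WT list and 19 for the KO list. The promoter of Med23 had a pileup of 64 in WT and 85 in KO, which does not check the deletion, since a floxed exon can be lost without its promoter. Of 6 genes that mark HSCs, Kit, Mecom and Hlf had a promoter peak in both lists, whereas Ly6a, Slamf1 and Procr had none within 1000 bp. None of 4 T cell marker promoters was a peak. Pax5 was the peak among 4 B cell genes (27 in WT, 23 in KO), Epb42 (13 and 14) was the peak among 3 erythroid genes, and among 4 neutrophil genes S100a8 and S100a9 had peaks of 11 and 10 in WT and none in KO. The part of other cells in the values below was not tested.

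The respiratory chain passes electrons from NADH through complex I and from succinate through complex II to ubiquinone, then through complex III and cytochrome c to complex IV, which reduces oxygen. Complexes I, III and IV pump protons across the inner mitochondrial membrane, and complex V, ATP synthase, uses the gradient to make ATP. Most subunits are encoded in the nucleus, their promoters are mostly CpG-rich, and NRF1, the ETS factor GABP, YY1 and the estrogen-related receptors are known regulators of such genes. Quiescent HSCs are known for low mitochondrial respiration and reliance on glycolysis.

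The sequences under the summits are shown first, because 4 motifs were more frequent in these promoters than in promoters at large. Each 200 bp window centred on a summit was searched on both strands for 9 short words, the letters of which are given where each is described, NRF1, ETS, YY1, ERR (the estrogen-related receptor element), SP, NFY, EBOX, CRE and TATA. None of these words contains another, and the NRF1 word is nearly palindromic, so that its matches on both strands can overlap and were counted as 1. A match is a description of the sequence and not evidence of binding.

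The YY1 word, AAGATGGCG, holds an ATG, and in 7 of its 8 matches in the WT windows that ATG was the annotated start codon of the gene. The matching 30 bases are printed 5′ to 3′ on the strand of the gene from GRCm38, with the YY1 match in capitals. Ndufs4 matched in the KO window and the others at least in the WT window, and Atp5j is the match away from a start codon.
Ndufa9 (chr6:126849095-126849124, minus strand): ttgtgggagAAGATGGCGgccgccgtccgc
Ndufs6 (chr13:73328429-73328458, minus strand): gtcaccggcAAGATGGCGgcggtgctgacc
Ndufa6 (chr15:82354211-82354240, minus strand): ttcctcggcAAGATGGCGgccgcggccacc
Ndufc1 (chr3:51408913-51408942, minus strand): ctgcggaacAAGATGGCGccgtccgtagtg
Ndufs4 (chr13:114388039-114388068, minus strand): gcctacaggAAGATGGCGgcggtctcaatg
Uqcrc1 (chr9:108936707-108936736, plus strand): ggaagttagAAGATGGCGgcgtccgcagtc
Atp5j2 (chr5:145191498-145191527, minus strand): caggacttcAAGATGGCGtcactcggtgag
Atp5j (chr16:84835044-84835073, minus strand): agtgtaggaAAGATGGCGgagtcttagctg

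The YY1 word occurred in 8 of 85 WT windows (9.41%, Wilson 95% interval 4.85 to 17.5) and in 5 of 89 KO windows (5.62%, 2.42 to 12.5), against 2.01% and 1.99% of all protein-coding promoter peaks. The other WT gene with a match was Ndufa2. All 8 WT matches lay on the strand of the gene, as did 73.2% of 310 matches in other protein-coding genes. The share at an annotated start codon was 87.5% in these genes and 39.7% in the others. In KO it was 3 of 5 matches, against 38.5%. The genome is the same in both lists, and the lists differed in which matches fell into the windows because the summit moved, by a median of 43 bp over the shared regions of these genes.

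The NRF1 word, GCGCANGCG, was found in 18 WT windows (21.2%, 13.8 to 31.0) and 23 KO windows (25.8%, 17.9 to 35.8), whereas 8.66% and 8.63% of all protein-coding promoter peaks held it. The matches below are those of succinate dehydrogenase, of the leading complex I genes and of 1 gene each from complexes III, IV and V, printed on the strand that reads GCGCANGCG and with that match in capitals. Sdha had 2 separate matches at its start site.
Sdha (chr13:74350231-74350260, minus strand): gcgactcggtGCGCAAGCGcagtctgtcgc
Sdha (chr13:74350276-74350305, minus strand): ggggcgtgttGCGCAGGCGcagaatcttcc
Sdhd (chr9:50603909-50603938, minus strand): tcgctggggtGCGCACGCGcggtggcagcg
Ndufa5 (chr6:24527697-24527726, minus strand): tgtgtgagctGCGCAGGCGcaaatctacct
Ndufaf5 (chr2:140170652-140170681, plus strand): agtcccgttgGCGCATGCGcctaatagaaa
Uqcrc1 (chr9:108936668-108936697, plus strand): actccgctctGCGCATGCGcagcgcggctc
Cox6a1 (chr5:115349056-115349085, minus strand): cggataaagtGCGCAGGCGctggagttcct
Atp5k (chr5:108434430-108434459, plus strand): agccagaaagGCGCATGCGccgcagtgaaa

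The ERR element, AAGGTCA, was present in 9 of 85 WT windows (10.6%, 5.67 to 18.9) and 7 of 89 KO windows (7.87%, 3.86 to 15.4), against 1.57% and 1.35% of all protein-coding promoter peaks. Of the 17 complex V genes, 6 held it in WT (Atp5a1, Atp5e, Atp5g3, Atp5k, Atp5l and Atp5mpl) and 4 in KO. None of the 14 complex IV genes with a peak held it in either list. The complex V matches are printed on the strand that reads AAGGTCA, with that match in capitals.
Atp5e (chr2:174464060-174464089, plus strand): ccggcagcaggAAGGTCAggcctgagtagc
Atp5g3 (chr2:73911361-73911390, plus strand): ggaagacgctcAAGGTCActttgtaacaac
Atp5k (chr5:108434358-108434387, minus strand): cttccggcgcgAAGGTCAcggacaaaatgg
Atp5l (chr9:44920738-44920767, plus strand): tccccatttccAAGGTCAggctgcccctct
Atp5mpl (chr12:111966964-111966993, plus strand): acagaatgggaAAGGTCAcagagcacgcag

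The ETS word, CCGGAAG, occurred in 20 WT windows (23.5%, 15.8 to 33.6) and 17 KO windows (19.1%, 12.3 to 28.5), against 12.2% and 12.4% of all protein-coding promoter peaks. In KO that background share lay inside the interval. Atp5j, which encodes coupling factor 6 of ATP synthase, had the highest summed pileup of complex V, and its start site faces that of Gabpa, the DNA-binding ETS subunit of GABP. The accessible stretch at their start sites held both an ETS and a YY1 match, in capitals, on the strand of Atp5j.
Atp5j (chr16:84834994-84835123, minus strand): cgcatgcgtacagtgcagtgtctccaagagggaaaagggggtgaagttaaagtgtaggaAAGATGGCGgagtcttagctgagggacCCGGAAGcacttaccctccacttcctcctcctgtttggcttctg

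The SP word, GGGCGGG, went the other way, with 21 of 85 WT windows (24.7%, 16.8 to 34.8) against 37.9% of all protein-coding promoter peaks. In KO it was 29.2% (20.8 to 39.4) against 38.2%. The words of NFY (CCAAT), of the E-box or EBOX (CACGTG), of the cyclic AMP response element or CRE (TGACGTCA) and of the TATA box (TATAAA) had intervals that contained the share of all protein-coding promoter peaks in both lists. In the 300 bp at the gene start of all 93 genes, with or without a peak, the shares were 18.3% for NRF1, 19.4% for ETS, 4.30% for YY1 and 10.8% for ERR, against 8.02%, 10.9%, 1.69% and 4.20% of all protein-coding genes. The excess was not particular to these genes. Counted by gene in WT, mitochondrial ribosomal protein genes with a peak held NRF1 in 19.7%, ETS in 31.6%, YY1 in 10.5% and ERR in 5.26%. In the same order, cytosolic ribosomal protein genes had 13.0%, 31.2%, 5.19% and 0%. All protein-coding genes outside the respiratory chain set had 9.90%, 14.1%, 2.29% and 1.33%. A TATA word was found in 3.53% of WT windows. Median GC content of the windows was 61.5% in WT and 61.5% in KO, lower than the 64.5% of the other protein-coding promoter peaks, whereas the observed to expected ratio of CpG was higher (0.875 against 0.786 in WT).

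**Figure D1:**
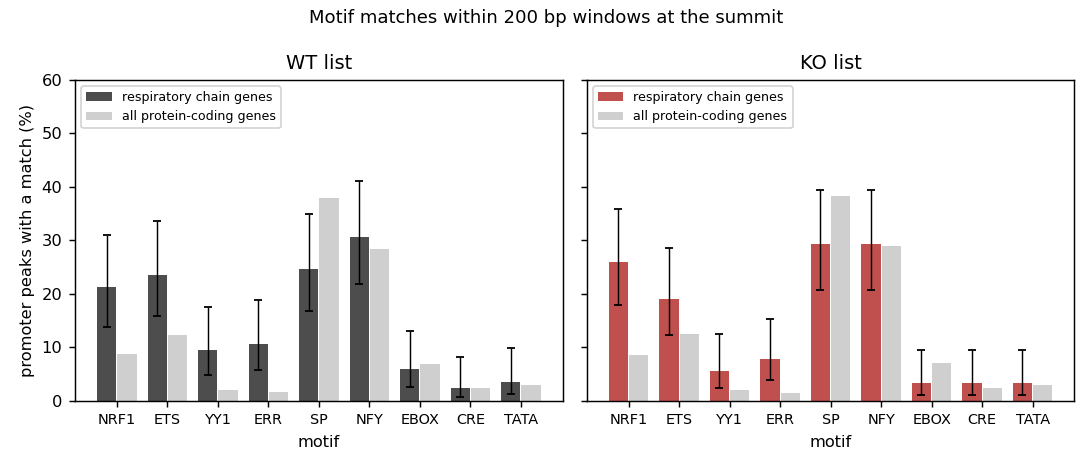
Share of promoter peaks (%) with a match of each of 9 motifs in the 200 bp window at the summit, for respiratory chain genes (coloured bars, with Wilson 95% intervals) and all protein-coding genes (grey bars), in the WT list (left) and the KO list (right). NRF1, YY1 and ERR intervals lie above the grey bars in both lists, ETS in WT, and SP lies below the grey bar in WT.

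Nearly the whole respiratory chain had accessible promoters in HSCs of both genotypes. A promoter peak was called for 85 of 93 genes in WT (91.4%) and 86 in KO (92.5%), against 61.1% and 60.8% of all protein-coding genes, and 84 genes had a peak in both. The peaks sat close to the start site. In WT the summit was within 100 bp of it in 75.3% of the genes with a peak and 61.0% of other protein-coding genes with a peak, and the values were 77.9% and 60.4% in KO.

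The 6 genes without a promoter peak in either list were Cox4i2, Cox6a2, Cox7b2, Cox8b, Cox8c and Ndufa4l2. All 6 are isoforms restricted to certain tissues or conditions, among them Cox6a2 and Cox8b of heart and skeletal muscle and Cox8c and Cox7b2 of testis. The nearest summit to a start site was at 1899 bp in WT and 1914 bp in KO for Ndufa4l2, a hypoxia-induced gene. For the other 5 genes it was farther away, in WT from 8330 bp for Cox8b to 46009 bp for Cox7b2. In the 300 bp at the gene start, their CpG observed to expected ratio ranged from 0.115 to 0.564 with a median of 0.336, whereas the median of the 84 genes with a peak in both lists was 0.804.

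Not every tissue-restricted isoform was closed. Cox6b2, the testis form of the subunit that faces the intermembrane space, had a pileup of 38 in WT and 35 in KO, higher than the 15 and 22 of its ubiquitous paralog Cox6b1. Cox7a1, the muscle form of subunit VIIa, had 25 in WT and 28 in KO, below the 53 and 57 of Cox7a2. These were the 2 of 8 tissue-restricted isoforms with a peak, and both had it in both lists.

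In the other isoform families each ubiquitous member was open. Cox4i1 had a pileup of 17 in WT and 21 in KO, Cox6a1 of 14 and 12, Cox7b of 20 and 15, and Cox8a of 54 and 70. Ndufa4, which was named for complex I and is a subunit of complex IV, had 121 in WT and 109 in KO. The 3 genes Atp5g1, Atp5g2 and Atp5g3 encode the same mature c subunit of the ATP synthase ring and differ in their import sequence. In that order their pileups were 43, 34 and 24 (WT) or 67, 27 and 28 (KO), so that Atp5g1 led in both lists.

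**Figure D2:**
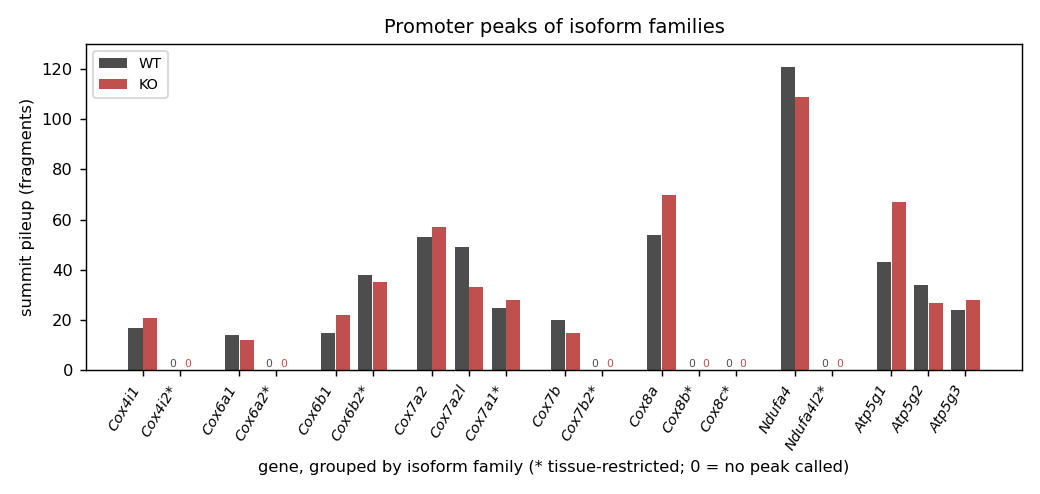
Summit pileup (fragments, linear axis from 0) of the strongest promoter peak of each gene of 8 isoform families in WT (dark bars) and KO (red bars), 1 list each; asterisks mark tissue-restricted isoforms and a 0 marks a gene with no peak called. Cox6b2 and Cox7a1 are the tissue-restricted genes with bars.

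The lists differed in the call of 3 genes. Ndufb8, an accessory subunit of complex I, had a peak in WT alone with a pileup of 14. Ndufb10, another accessory subunit, and Uqcr11, a small subunit of complex III, had peaks in KO alone with pileups of 12 and 15. All 3 values were low among these promoters, whose pileups spanned 6 to 136 (WT) or 9 to 168 (KO).

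By peaks, 1 of 85 WT peaks (1.18%) had no overlap of at least 1 bp in the KO list, and 4 of 89 KO peaks (4.49%) had none in the WT list. The corresponding shares of all protein-coding promoter peaks were 7.64% and 7.28%. The WT peak was that of Ndufb8. The KO peaks were those of Ndufb10 and Uqcr11 and additional weaker peaks of 15 for Ndufb2 and Atp5d. Both genes had their main peak at another start site, and it overlapped between the lists. The additional Atp5d peak lay 456 bp from the annotated start of the gene, and also within 1000 bp of a start site of Cbarp. When a match was defined as summits within 100 bp, 16 WT peaks (18.8%) and 20 KO peaks (22.5%) had none, against 33.8% of all protein-coding promoter peaks in WT and 33.8% in KO.

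The spread between genes was wider than any difference between the lists, in which the log2 ratio of KO to WT pileup stayed between -0.65 and 0.82. The highest pileup was that of Cox7c, a small subunit of complex IV, with 136 in WT and 168 in KO. Next in WT came Ndufa4, with the values above, and then Atp5j with 111 and 126, whereas in KO Atp5j stood above Ndufa4. The lowest in WT was that of Ndufaf1, an early assembly factor of complex I, with 6 in WT and 10 in KO. In KO the lowest was that of Ndufa9, with 9. The plot of KO against WT pileup shows each gene beside the line of equal pileup.

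**Figure D3:**
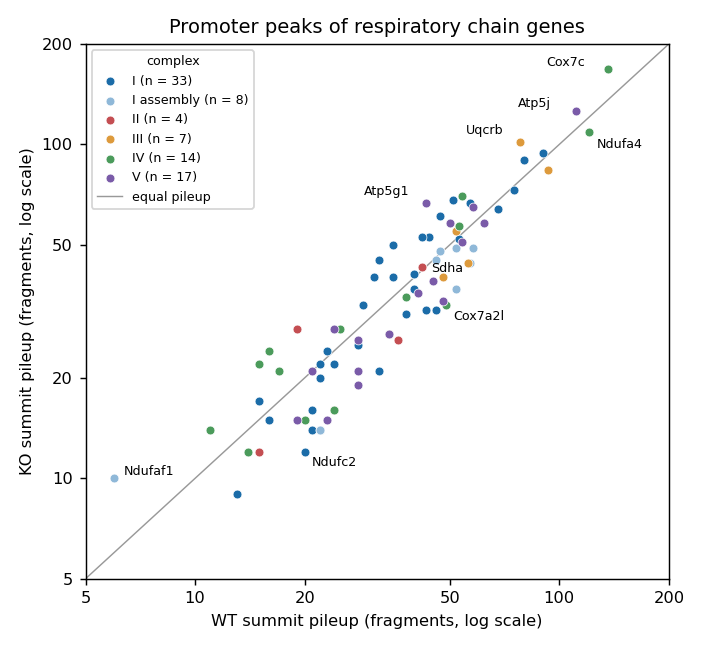
Summit pileup in KO against WT (fragments, both axes on a log scale) for the 83 respiratory chain genes whose region holds 1 peak of each list, coloured by complex, with the line of equal pileup. Cox7c, Ndufa4 and Atp5j sit at the top and Ndufaf1 and Ndufa9 at the bottom, and points scatter on both sides of the line.

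The complexes differed in level. Median pileup per gene was 32 in both lists for complex I, 49.5 in WT and 44.5 in KO for its assembly factors, and 27.5 and 27 for complex II. It was 52 and 42 for complex III, 24.5 and 26 for complex IV, and 41 and 34 for complex V. Over all genes with a peak it was 36 in WT and 33 in KO, close to the 33 and 33 of other protein-coding genes. Complex IV had the widest spread, from 11 for Cox6c to 136 for Cox7c in WT.

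Within complex I the strongest promoter belonged to an accessory subunit. Ndufa5 had 90 in WT and 94 in KO, and the weakest, Ndufa9, had 13 and 9. The 7 nuclear core subunits form the arm that oxidizes NADH, and ranged from Ndufs3 (15 and 17) to Ndufv2 (75 and 73). The assembly factor Ndufaf5 led its group with 58 and 49.

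Complex II is the only complex without a mitochondrially encoded subunit, and all 4 of its genes had peaks. Sdha, the flavoprotein that oxidizes succinate, had 42 in WT and 43 in KO. The iron-sulfur subunit gene Sdhb had 36 and 26. Of the membrane anchors, Sdhc had 15 and 12 and Sdhd had 19 and 28. Sdhb therefore lay above Sdhd in WT and below it in KO, and all 4 intervals of the KO:WT ratio included 0.

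In complex III, Uqcrb had 78 in WT and 102 in KO and Uqcrc2, a core protein, had 93 and 84. Uqcrc1, its partner core protein, had the lowest values among the genes with a peak in both lists, 24 and 16. Uqcrfs1, the Rieske iron-sulfur protein, had 48 and 40. In complex V, the catalytic subunit genes Atp5a1 and Atp5b had 41 and 58 in WT and 36 and 65 in KO, and Atp5l had the lowest summed pileup with 19 and 15.

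Differences between genotypes were then taken as the log2 ratio of KO to WT pileup after scaling by the genome-wide background of each list (1.19 in WT, 1.13 in KO). The median over the 83 regions of these genes was -0.0018, with quartiles of -0.26 and 0.28. It was 0.086 over 12303 promoter regions of other protein-coding genes, 0.17 over all 28909 shared regions and 0.22 over those away from protein-coding promoters. Summed over the 83 regions, pileup reached 3402 for WT and 3390 for KO, a scaled log2 ratio of 0.081 (0.012 to 0.15). For the 12337 regions of the other protein-coding genes, which include regions shared with respiratory chain genes, it was 0.13 (0.13 to 0.14).

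Relative to the median of all shared regions, 28 of the 83 regions (33.7%) lay above it, against 43.2% of other protein-coding promoter regions. Among regions with a summed pileup between 42 and 105, the quartiles of these genes, the shares were 23.3% of 43 and 41.7% of 5752, and the medians -0.027 and 0.086. The median of these genes was -0.087 with unscaled pileups and 0.17 with the authors' fold enrichment. Its difference from other protein-coding promoters stayed between -0.11 and -0.087 over the 8 alternatives run. Unscaled pileups had to leave that difference unchanged, because scaling shifts every region equally. That difference was small, and with 1 list per genotype the spread between samples that it should be set against is unknown.

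At least 1.5-fold below the median of all shared regions were 12 of the 83 regions (14.5%), against 7.83% of all protein-coding promoter regions. At least 1.5-fold above it was 1 (1.20%), against 3.56%. Among regions with a summed pileup between 42 and 105, 4 of 43 (9.30%) lay that far below the median of all shared regions. The share was 7.60% of 5752 other protein-coding promoter regions. As far above it lay 0%, against 3.41%. In 0 of the 83 did the counting interval of the ratio lie wholly above that median, and in 0 wholly below it, where 1.38% and 2.23% of all protein-coding promoter regions did. With the authors' fold enrichment as the quantity compared, 5 regions (6.02%) were at least 1.5-fold lower, against 4.55% of all protein-coding promoter regions. Ndufb8, Ndufb10 and Uqcr11, with a peak in 1 list, and Ndufa13, with 2 KO peaks over its WT peak, are not among the 83 regions. By pileup, mitochondrial ribosomal protein genes had 9 of 75 regions at least 1.5-fold lower and 1 higher, with 4 intervals below and 0 above. Cytosolic ribosomal protein genes had 5 of 78 lower and 2 higher, with 3 intervals below and 1 above.

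Of the 12 lower regions, 6 belonged to complex I subunits, 1 to an assembly factor, 1 to complex III, 2 to complex IV and 2 to complex V. Ndufc2, an accessory subunit of the membrane arm, had 20 in WT against 12 in KO (log2 ratio -0.65, -1.82 to 0.45). Its neighbour in the membrane arm Ndufc1 and the assembly factor Ndufaf6 both had 22 and 14 (-0.57). Atp5mpl, a small ATP synthase subunit, had 23 and 15 (-0.53), and Ndufb3 had 32 and 21 (-0.52). The other 7 regions past 1.5-fold were those of Ndufa7, Cox5b, Uqcrc1, Cox7a2l, Atp5j2, Ndufa9 and Ndufv3. The largest of the 12 by WT pileup was Cox7a2l, a factor that joins complexes III and IV, with 49 and 33 (-0.48, -1.17 to 0.18).

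The highest ratios were spread over the complexes. Ndufaf1, the 1 region past 1.5-fold, had 6 in WT against 10 in KO (log2 ratio 0.82, -0.78 to 2.57). Atp5g1 had 43 and 67 (0.73, 0.15 to 1.31), Cox5a 16 and 24 (0.67), Sdhd 19 and 28 (0.65) and Cox6b1 15 and 22 (0.64). The interval of Atp5g1 lay above 0 but included the median of all shared regions. The same held for Cox7c (0.39, 0.056 to 0.73) and Uqcrb (0.47, 0.033 to 0.92).

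By complex, the median log2 ratio was 0.058 for complex I (33 regions), -0.079 for its assembly factors (8) and -0.058 for complex II (4). It was -0.18 for complex III (7), 0.22 for complex IV (14) and -0.021 for complex V (17). With the authors' fold enrichment it was 0.22 for the assembly factors, 0.17 for complex III and 0.11 for complex V, and with unscaled pileups it was -0.027 for complex I, so these signs depend on the quantity compared. The 7 core subunits of complex I had a median of 0.27, from 0.047 for Ndufv2 to 0.58 for Ndufv1, and the 26 accessory subunit regions had -0.017. Above the median of all shared regions were 4 of the 7 and 8 of the 26. All 7 core ratios were above 0 after scaling, as were 62.1% of other protein-coding promoter regions, but without scaling 5 were, Ndufv2 lying below 0 and Ndufs7 at 22 in both lists. Genes of a complex are not replicates, and the complexes were not tested against each other.

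**Figure D4:**
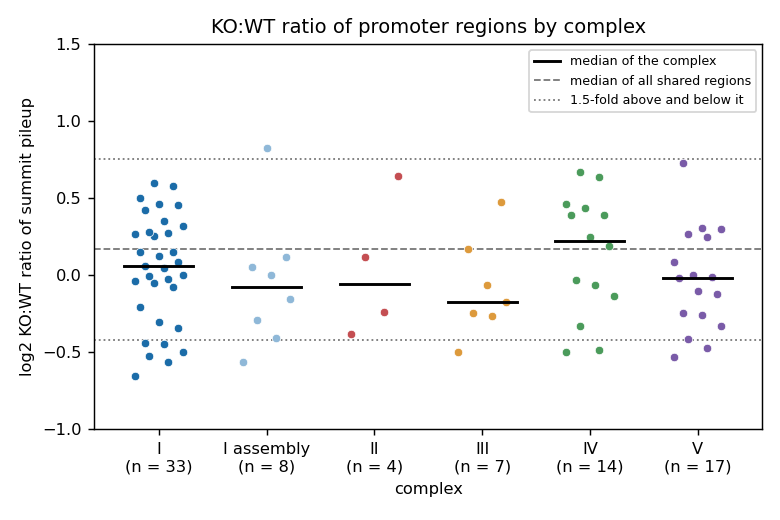
Log2 KO:WT ratio of summit pileup, scaled by the background of each list, for each promoter region (points) by complex, with the median of the complex (black bar), the median of all shared regions (0.17, dashed) and the lines 1.5-fold from it (dotted). Complex IV is the group whose median lies above the dashed line, Ndufaf1 lies above the upper dotted line, and 12 points lie below the lower dotted line.

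A feature that the choice of genes did not use was the arrangement of the promoters. The strongest peak was within 1000 bp of the start of a gene on the other strand for 35 of 85 genes in WT (41.2%) and 34 of 86 in KO (39.5%), against 17.3% and 17.2% of other protein-coding genes with a peak. Mitochondrial ribosomal protein genes had a similar share (42.1% of 76 in WT), whereas cytosolic ribosomal protein genes had 19.5% of 77. Complex II had such a partner for 3 of 4 genes and complex IV for 2 of 14.

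Some partners themselves encode mitochondrial proteins, and the examples here were picked, since their share among all partners was not counted. Ndufb5 (80 in WT, 90 in KO) faced Mrpl47 and Ndufs6 (35 and 40) faced Mrpl36, both subunits of the mitochondrial ribosome. Sdhd faced Timm8b, an import chaperone of the intermembrane space. Genes with a partner had the larger peaks, with a median pileup of 46 against 30 without a partner in WT and 41.5 against 27.5 in KO. Such a peak cannot be ascribed to either gene, and for Ndufa11 and Ndufa13 the summit was far from their own start (-677 and 920 bp in WT) and nearer to Vmac and Tssk6.

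**Figure D5:**
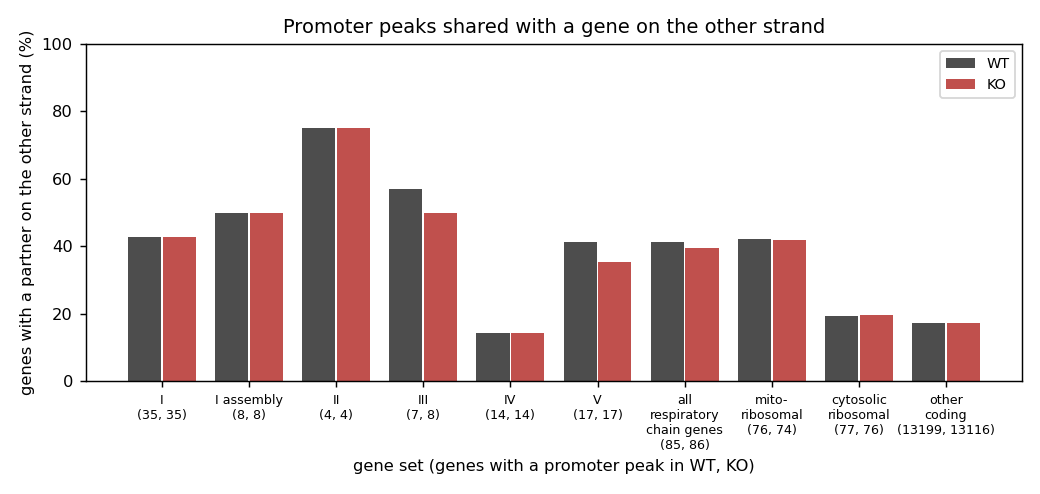
Share of genes (%) whose strongest promoter peak lies within 1000 bp of the start of a protein-coding gene on the other strand, in WT (dark bars) and KO (red bars), by complex and for comparison sets, with the number of genes with a peak in WT and KO under each. Respiratory chain and mitochondrial ribosomal protein genes stand near 40%, and cytosolic ribosomal protein and other genes below 20%.

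Genes of the pathway outside the symbol rule were open to a like extent. Of 17 further electron transport genes, among them cytochrome c and the coenzyme Q synthesis genes, 17 had a promoter peak in WT and 16 in KO, and Coq5 had a peak of 9 in WT alone. Of 32 further assembly genes, 31 had a peak in both lists, and Sdhaf1 had none. The median log2 KO:WT ratio was 0.053 for the first and 0.12 for the assembly genes. Mitochondrial ribosomal protein genes had 0.12 over 75 regions and cytosolic ones 0.086 over 78.

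In this set Cox17, the copper chaperone of complex IV, had 22 in WT against 48 in KO (log2 ratio 1.21, 0.46 to 2.01). Its interval lay above the median of all shared regions. Those of the ATP synthase assembly factor Atpaf2 (49 and 31, -0.57, -1.27 to 0.10) and of Etfb, a subunit of the electron transfer flavoprotein (113 and 88, -0.28, -0.69 to 0.14), lay below it. As given above, 1.38% and 2.23% of all protein-coding promoter regions lay above and below. The ETS word was found in 13 of the 31 further assembly genes with a peak in each list (41.9%), against 14.1% of other protein-coding genes with a peak in WT.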

How the data were processed

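ATAC-seq libraries of 2 WT and 2 KO samples were represented by 1 narrowPeak list and 1 summit list per genotype. Per the labels, the authors used Trim Galore, Bowtie2, Picard and MACS2 with the mm10 build. Per the study's methods, duplicates and reads of the mitochondrial genome had been taken out. How the 2 samples entered a list, and versions, were not given in the sources used here. The deposited columns used were fold enrichment (a ratio over local background), -log10 p-value, -log10 q-value and summit; the deposited score column was not used. Read counts were not analysed here, so depth is known only through pileup and the genome-wide background of each list.

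Fold enrichment equals (pileup + 1)/(background + 1) in MACS2, and the pileup was solved as the whole number that also gives the Poisson -log10 p within 0.001. This held for 100% of WT and 99.99% of KO peaks on autosomes and X. Exceptions were 2 KO peaks, and none of the peaks of respiratory chain genes. Genome-wide background was the median of the 1000 lowest local backgrounds. Entries with the same symbol and chromosome were merged (94 entries, 93 genes). Per gene and list the peak with the highest pileup was used. KO:WT ratios were taken for unions of overlapping peaks with 1 peak of each list, with exact binomial (Clopper-Pearson) 95% intervals; shares have Wilson intervals. Fragments amplified by PCR without molecular identifiers are not independent, and intervals of ratios cover counting error only. Sequences came from RefSeq GRCm38.p6, the assembly of mm10. Runs of annotated UTR over 30 bases and chromosome 18 were not printed. Python 3.11.15, pandas 2.3.3, scipy 1.17.1 and pyfaidx 0.9.0.4 were used, and the functions were tested on simulated data.

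Named genes were all isoform family members, genes without a peak in 1 or both lists, regions past 1.5-fold, the 5 highest and 5 lowest ratios, the highest and lowest summed pileup per complex, and the Sdh genes. Others were named as further examples after their values were seen. Genes and lists were chosen with earlier results of these data known. Alternatives covered the distance, the start sites, a q-value minimum, the overlap, the quantity compared, the fold and the window. Some items are not reported here.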

Additional observations from a re-analysis of the deposited data

Results flagged for a closer look

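Further subunits of complexes I, III, IV and V are encoded by the mitochondrial genome, which no comparison above used. Each list held 2 broad peaks there, at the same summits, with fold enrichments of 1.57 and 1.80 in WT and 1.91 and 2.19 in KO. They are listed here because both KO values exceeded those of the control list. Fold enrichment was higher in KO over the peaks on autosomes and X too, with medians of 6.38 in WT and 7.44 in KO, a KO:WT ratio of 1.17 against 1.22 and 1.22 at these peaks. The peaks were 6251 and 5159 bp wide in WT and 6348 and 5213 bp in KO. The study's methods state that reads of the mitochondrial genome were removed before peaks were called, so these peaks rest on what was left, and the cause of the difference was not tested.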

How the results depend on the processing

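No paired analysis was possible because WT and KO had 1 list each, without replicate numbers, and leaving out a replicate could not be run for the same reason. Of 142 alternative values, 107 stayed within 1.5 times (counts), within the counting interval or, for shares, within the Wilson interval. The cause of the other shifts was not tested. Numbers of genes with a peak, isoform calls, median pileups and the share with a partner on the other strand were among those that stayed. Peaks without overlap in the other list depended on the overlap asked for. Beside 1 in WT and 4 in KO, they were 16 and 20 with summits within 100 bp and 4 and 8 with an overlap of 50% of both peaks, and in WT 2 and 5 at a -log10 q of at least 5 and 10 and 3 at 2500 bp. Apart from the 1 bp and 100 bp rules above, the share over all protein-coding promoter peaks was not counted, so these counts describe the settings only. The median log2 ratio was -0.087 with raw pileups and 0.17 with the authors' fold enrichment, which gave 0.22 for assembly factors and 0.17 for complex III, and the sign thus depends on the scaling. Regions lower in KO were 28 at a lower threshold (log2 of 0.32), 0 at 2-fold and 5 with fold enrichment, and regions higher were 8 and 0 at these thresholds. The shares over all protein-coding promoter regions at the lower threshold and at 2-fold were not counted. Those counts therefore cannot show whether these genes differ from other promoters. Window shares are followed in parentheses by those of all protein-coding promoter peaks at the same width. With 100 bp windows, WT shares were 11.8% (7.47%) for ETS, 12.9% (23.1%) for SP, 0% (1.38%) for CRE, 1.18% (3.81%) for EBOX and 1.18% (1.29%) for TATA. KO shares were 13.5% (4.28%) for NRF1, 2.25% (0.969%) for YY1, 15.7% (23.0%) for SP, 0% (1.39%) for CRE and 1.12% (1.38%) for TATA. With 400 bp windows SP was 38.8% (50.4%) in WT, and ERR 16.9% (3.39%) and EBOX 10.1% (11.5%) in KO. GC content with 400 bp windows was 60.75% in WT and 59.75% in KO. At the gene starts of all 93 genes YY1 was 4.30% (all coding genes 1.69%), TATA 11.8% (12.6%) and NFY 40.9% (38.9%). The restriction to like pileups was chosen after seeing the data. Small peaks limit the depth: a pileup of 20 against 12 had an interval from -1.82 to 0.45 on the log2 scale.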

Other observations

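Promoters of 12 regulators of mitochondrial gene expression were read in the same way. A peak was called for 11 of them in WT and 12 in KO, and the median log2 KO:WT ratio over 12 regions was 0.23. Tfb1m, which encodes a methyltransferase of mitochondrial ribosomal RNA, had 115 in WT against 153 in KO (log2 ratio 0.50, 0.14 to 0.86), an interval that included the median of all shared regions. Tfam, the mitochondrial DNA packaging factor, had 78 in both lists. Nrf1 had 27 and 30, Yy1 49 and 54, Esrra 48 and 49 and Gabpb1 23 and 28, all with intervals that included 0. Ppargc1a, a coactivator of respiratory genes, had a promoter peak of 23 in KO and none in WT by the 1000 bp rule, but that KO peak overlapped a WT peak whose summit lay 1321 bp away.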
